A study of Mus musculus with 24 samples.

Results

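The mitochondrial carriers of the SLC25 family were examined in immortalised mouse adipocyte precursors and in the adipocytes made from them. The family was taken as every gene whose symbol is Slc25a followed by a number, with 1 such symbol not analysed here, which gave 46 of the 24825 genes listed. Of these, 38 had at least 1 FPKM (fragments per kilobase of gene length and per 1000000 counted fragments) in at least 3 of the 24 libraries and are described, among 12640 genes that passed the same filter. Carriers of this family sit mostly in the inner mitochondrial membrane, where each moves a small metabolite, nucleotide, cofactor or ion between the cytosol and the matrix. In adipocytes they are known for exporting citrate for fatty acid synthesis, for supplying ADP and phosphate to ATP synthase, and for feeding substrate to the respiratory chain that thermogenic fat cells uncouple. Their genes share an ancestor, but their substrates, and therefore the pathways they serve, differ widely between members.

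All cells derived from the stromal vascular fraction of inguinal white fat of Nfia flox/flox mice, in which exon 2 of Nfia is flanked by loxP sites, and all carried SV40 large T antigen. Retroviral vectors gave 4 kinds of cells: ctrl had an empty vector, Cre had the recombinase, Cre + NFIA had in addition full-length NFIA with a FLAG tag, and Cre + NFIA Δpro#3 had instead a tagged NFIA that lacks a short C-terminal part of its proline-rich domain, named pro#3 (called the mutant, or Δpro#3, where values are listed). All were sequenced before (day 0) and at day 7 of differentiation, with 3 libraries per group and 8 groups. Differentiation was driven in every kind of cell by isobutylmethylxanthine, indomethacin, dexamethasone, insulin, T3 and rosiglitazone, and then by insulin, T3 and rosiglitazone. The comparisons address what Cre changes in these cells and whether either form of NFIA brings it back. As a model, the cells are an immortalised mixed preparation in which each vector is carried by infected cells of a culture. The labels do not say whether replicates are separate cultures, so p-values measure only the spread between these samples.

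Libraries held 7732829 to 13088356 reads at day 0 and 9152991 to 14622189 at day 7. The day 7 ctrl libraries held Nfia at 9.81, 9.15 and 9.70 FPKM and those labelled Cre at 10.7, 10.1 and 9.49 FPKM (log2 difference 0.07, SE 0.072, adjusted p = 0.426 by limma). The day 0 values were 6.23, 6.75 and 6.43 FPKM for ctrl and 6.81, 5.34 and 6.49 FPKM for those labelled Cre. The gene-level value, which includes exons outside the floxed one, thus did not fall with Cre. The study reported efficient recombination by PCR of genomic DNA, and an almost complete loss of NFIA mRNA and protein with Cre. Those assays were not analysed here. Cre is used here only as a label, and every direction given for it rests on that label. Reads of the transgenes count as Nfia, which at day 7 was at 97.1, 89.0 and 83.9 FPKM with full-length NFIA and 111, 99.5 and 94.98 FPKM with the mutant. The cells were also checked against markers of their kind. The 7 adipocyte markers (Adipoq, Plin1, Fabp4, Cidec, Lpl, Pparg and Cebpa) summed to 72.1 to 118 FPKM over the day 0 libraries. At day 7 the sum was 21438 to 24887 FPKM in ctrl, 4326 to 9272 in libraries labelled Cre, 19980.2 to 20222 in Cre + NFIA and 831 to 2095 in Cre + NFIA Δpro#3, with none of the 7 at 0. Among the day 7 libraries labelled Cre, replicate 3 held the lowest sum, 4326 against 7519 and 9272 FPKM. Among those of the mutant replicate 1 did, at 831 against 1905 and 2095 FPKM. The sum of the 8 precursor markers went the other way. It was 2910 to 3376 FPKM at day 0. At day 7 it was 863 to 938 in ctrl, 1817 to 2080 in libraries labelled Cre, 768 to 865 in Cre + NFIA and 1993 to 2319 in Cre + NFIA Δpro#3. Ly6a and Col1a1 made up most of it. In ctrl Ly6a, Col1a1, Pdgfra, Pdgfrb and Cd34 fell. Dcn did not, at 16.1, 21.8 and 18.7 FPKM at day 0 and 24.1, 20.4 and 21.3 at day 7. Dcn rose in libraries labelled Cre and with the mutant, and fell in Cre + NFIA. Lum rose in ctrl, to at most 1.10 FPKM, and Dpp4 was at most 0.0751 FPKM in any library. Macrophage markers summed to at most 11.3 FPKM, endothelial markers to at most 10.2 and skeletal muscle markers to at most 0.139, and Adgre1, Myod1 and Myh8 were listed at 0 throughout. The part that this difference in adipocyte markers has in the results was not tested, and in bulk samples fewer cells of a type and less RNA per cell cannot be told apart.

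The 4 promoters shown are those of the carriers the results turn on, from 250 bases before to 50 bases after the start site (RefSeq, GRCm38.p6). Slc25a10 rose most and Slc25a24 fell most over differentiation of Cre + NFIA cells, as measured on log2(FPKM + 1), and Slc25a4 and Slc25a5 are the 2 ADP/ATP carriers of these cells. The values in FPKM come from another build, mm9, with an annotation that is not given. In GENCODE vM1, an annotation of that build, Slc25a10 lies at chr11:120353154-120360501, Slc25a24 at chr3:108926067-108971375, Slc25a4 at chr8:47292151-47296638 and Slc25a5 at chrX:34335646-34338802. These may not be the gene models that were counted, and no coordinate was carried between the builds. Capitals mark the letters CCAAT or, in Slc25a5, the letters TTGGCA, the short form of the nuclear factor I site, read on either strand.
Slc25a10 (chr11:120491587-120491886, plus strand): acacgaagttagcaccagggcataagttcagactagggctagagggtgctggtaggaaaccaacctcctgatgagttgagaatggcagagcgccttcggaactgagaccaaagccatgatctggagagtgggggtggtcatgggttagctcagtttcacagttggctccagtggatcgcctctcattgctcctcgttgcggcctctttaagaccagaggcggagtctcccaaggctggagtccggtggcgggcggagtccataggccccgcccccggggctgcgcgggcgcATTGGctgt
Slc25a24 (chr3:109122899-109123198, plus strand): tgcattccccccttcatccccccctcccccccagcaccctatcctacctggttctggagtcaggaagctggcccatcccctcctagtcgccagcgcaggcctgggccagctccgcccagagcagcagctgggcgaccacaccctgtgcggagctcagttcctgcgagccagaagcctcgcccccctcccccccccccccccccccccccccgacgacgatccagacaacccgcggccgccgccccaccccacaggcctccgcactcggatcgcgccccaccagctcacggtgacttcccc
Slc25a4 (chr8:46211013-46211312, minus strand): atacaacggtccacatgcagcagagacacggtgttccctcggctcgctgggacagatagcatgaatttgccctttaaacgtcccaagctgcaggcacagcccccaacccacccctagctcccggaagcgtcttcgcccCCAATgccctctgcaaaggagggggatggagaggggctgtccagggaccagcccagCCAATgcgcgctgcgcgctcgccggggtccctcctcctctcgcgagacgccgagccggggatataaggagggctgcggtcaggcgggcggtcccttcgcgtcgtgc
Slc25a5 (chrX:36795347-36795646, plus strand): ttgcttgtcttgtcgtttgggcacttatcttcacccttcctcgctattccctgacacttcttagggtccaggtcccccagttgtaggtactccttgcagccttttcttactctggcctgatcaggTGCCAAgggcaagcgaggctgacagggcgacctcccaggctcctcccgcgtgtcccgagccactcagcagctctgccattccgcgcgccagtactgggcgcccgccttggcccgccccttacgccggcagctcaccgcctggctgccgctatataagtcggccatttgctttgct
The letters TTGGCA were found in 14.1% of the 32851 promoters of the table and in 2 of 45 promoter entries of the family, those of Slc25a5 and Slc25a47. The full palindrome, TTGGC and GCCAA with 5 bases of any kind between them, was in 0.0365% of all promoters and in 0 of the 45. CCAAT was in 37.4% of all promoters and in 22 of the 45 entries. These are matches of letters within 300 bases and say nothing of binding. The 45 entries belong to 35 members, and members such as Slc25a26, Slc25a27, Slc25a32, Slc25a35, Slc25a37, Slc25a41, Slc25a44 and Slc25a51 had none.

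Between genes, levels were compared per length, as FPKM. Summed over the family, expression at day 0 was 1056 ± 30.6 FPKM in ctrl (mean ± SD, n = 3), 1098 ± 25.5 in libraries labelled Cre, 1221 ± 14.4 in Cre + NFIA and 1228 ± 12.8 in Cre + NFIA Δpro#3. At day 7 the sums were 2357 ± 126, 1557 ± 129, 2488 ± 16.9 and 1289 ± 19.2 FPKM in the same order. After differentiation the family sum was therefore highest in Cre + NFIA and close to it in ctrl, without overlap (2474 to 2506 and 2214 to 2453 FPKM). It was lower in libraries labelled Cre and lowest with the mutant. Slc25a3, Slc25a4 and Slc25a5, which carry phosphate, ADP and ATP, made up 45.7% to 58.3% of the sum in every library. Levels of members with near-identical processed copies elsewhere in the genome, as is known of Slc25a5, may be understated, since reads that aligned to more than 1 place were not kept. At the other end, 8 members stayed below the filter: Slc25a2, Slc25a18, Slc25a21, Slc25a31, Slc25a41, Slc25a43, Slc25a48 and Slc25a54. The most reads that any library held for one of them was 14, for Slc25a2, and Slc25a21 had 0 in all 24. Slc25a34 passed the filter through 8 day 7 libraries and Slc25a23 through the 12 day 7 libraries, with no day 0 library at 1 FPKM, so for these carriers a difference between days followed from the filter. The 8 libraries of Slc25a34 were those of ctrl and Cre + NFIA and replicates 1 and 2 of those labelled Cre. Its differences between kinds of cells at day 7 are therefore not independent of the filter.

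**Figure D1:**
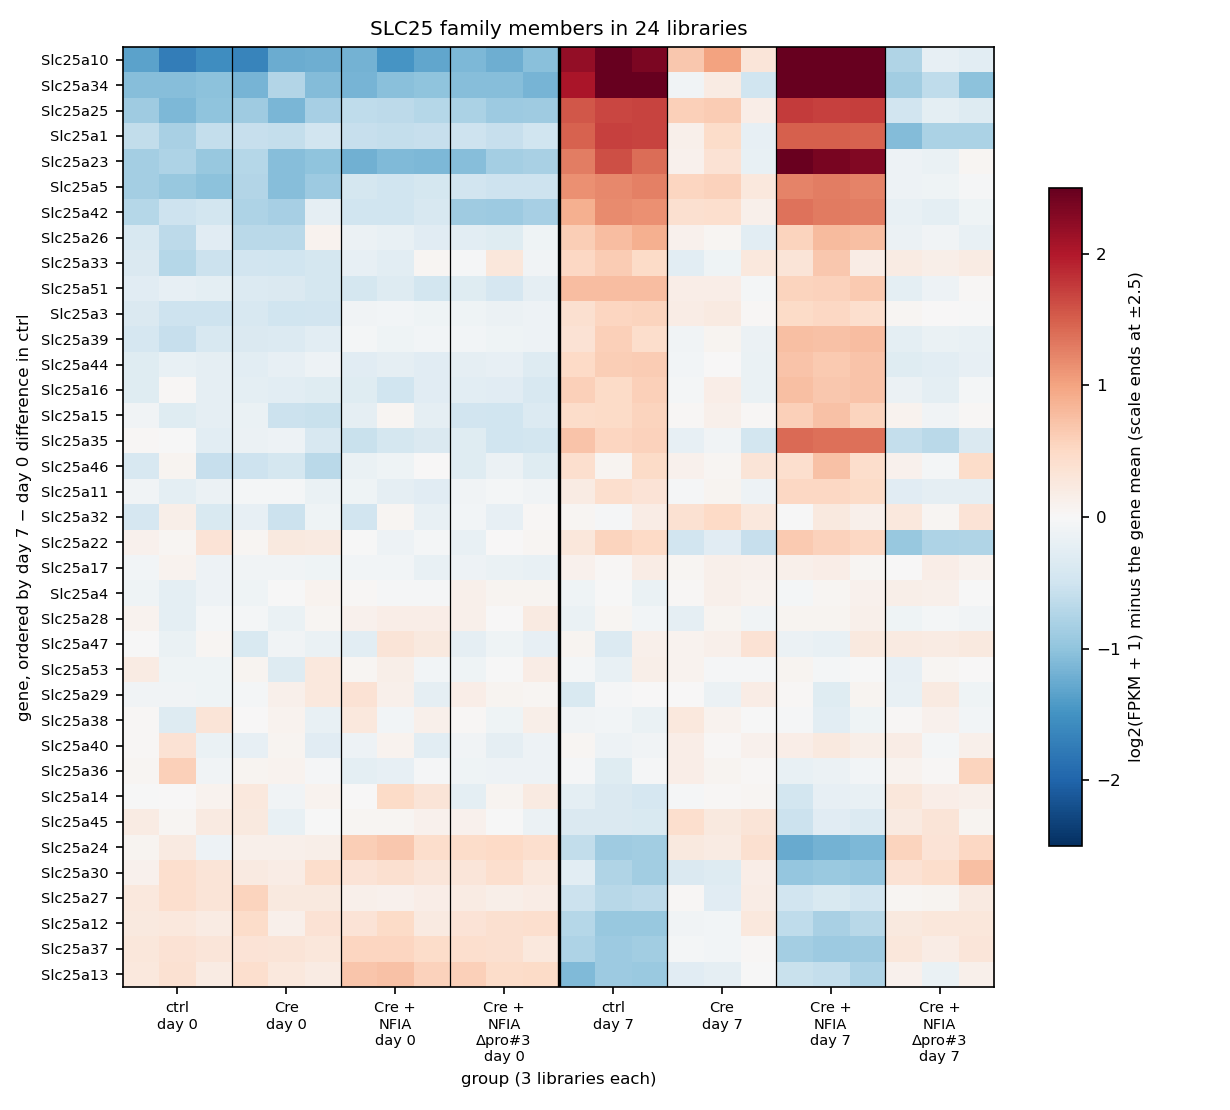
The carriers described (rows) in the 24 libraries (columns, 3 per group). Colour is log2(FPKM + 1) minus the mean of the gene over all libraries, with red for higher and blue for lower. Rows are ordered by the difference between days in ctrl: the top rows, led by Slc25a10 and Slc25a34, are deepest red in ctrl and Cre + NFIA at day 7 and paler in libraries labelled Cre, the bottom rows, from Slc25a24 to Slc25a13, are blue there, and the rows around Slc25a4 and Slc25a28 change little.

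Differentiation of ctrl cells divided the family. Carriers of citrate, dicarboxylates, phosphate and coenzyme A rose, as did 1 of the 2 ADP/ATP carriers and 2 of the 3 ATP-Mg carriers, while both aspartate/glutamate carriers, mitoferrin 1 and the uncoupling-protein-like carriers fell. Tests were made with limma on log2(FPKM + 1), so fold changes of low genes are understated, and a gene passed at a Benjamini-Hochberg adjusted p under 0.05 over the 12640 genes. In ctrl, 21 members were higher and 8 lower at day 7, 29 of 38 or 76.3%, a share near that of all genes, of which 71.0% passed (32.9% higher and 38.1% lower). With a change of at least 3-fold as a second requirement, 8 members remained, all higher, against 8.50% of all genes. These include Slc25a34 and Slc25a23, whose direction the filter fixed, and the count was 5 with a pseudocount of 5 and 10 with one of 0.1 or with limma voom. The median log2 change was 0.38 for the 38 carriers, 1.42 for 75 subunits of the respiratory chain and ATP synthase, all of which were higher, and -0.05 for all genes. In Cre + NFIA 22 members were higher and 8 lower, where 70.1% of all genes passed (31.8% higher and 38.3% lower). In libraries labelled Cre 20 were higher and 6 lower, where 51.7% of all genes passed (30.0% and 21.6%). With the mutant 11 were higher and 4 lower, where 41.5% of all genes passed (24.5% and 17.0%). With size factors by the median of ratios the last split was 8 higher and 6 lower, and with quantile normalization 9 and 6.

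**Figure D2:**
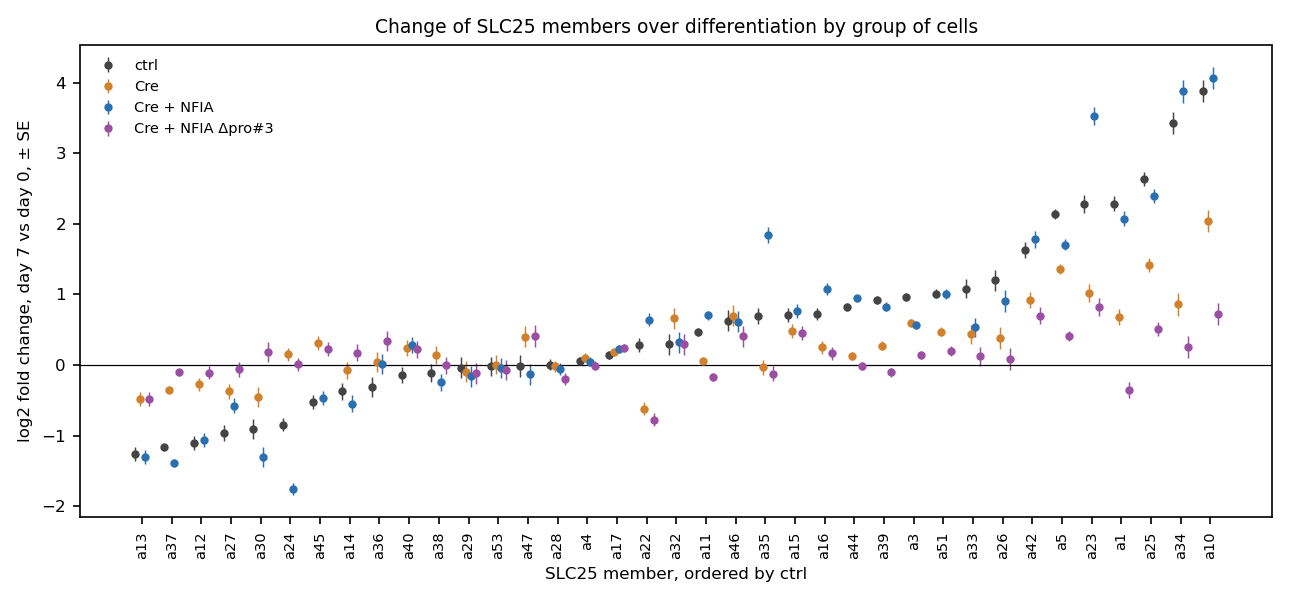
Log2 fold change between day 7 and day 0 (vertical axis, ± SE) of each carrier plotted (horizontal axis, named by number, ordered by ctrl) in the 4 kinds of cells, from limma on log2(FPKM + 1). Black (ctrl) and blue (Cre + NFIA) points lie far from 0 at both ends, from -1.26 in Slc25a13 to 3.89 in Slc25a10 in ctrl, while purple points (Cre + NFIA Δpro#3) stay between -0.78 and 0.82.

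At day 7 the carriers of citrate, dicarboxylates, phosphate, coenzyme A and NAD+ and the ADP/ATP carrier Slc25a5 were below ctrl in libraries labelled Cre. Both aspartate/glutamate carriers, mitoferrin 1, Slc25a24 and the uncoupling-protein-like carriers were higher. Of the 38 members, 19 were below and 11 above ctrl in libraries labelled Cre, 30 in all or 78.9%, against 58.8% of all genes, 22.7% lower and 36.1% higher. Slc25a34 and Slc25a10 were lower by 3-fold or more, as were 1.27% of all genes. Slc25a34 passed the filter mainly through ctrl and Cre + NFIA libraries, so its place in this count is not independent of the filter. The median log2 difference was -0.26 for the carriers, -0.74 for the respiratory chain subunits, of which 73 of 75 were lower, and 0.09 for all genes. Size factors by the median of ratios moved the median of all genes by -0.11 and gave 20 lower and 7 higher members, and 3948 lower and 3398 higher genes in place of 2867 and 4563. Quantile normalization gave 19 lower and 8 higher members. Without replicate 3 of the libraries labelled Cre, 19 were lower and 10 higher, and 1 was past 3-fold. All 7 adipocyte markers were lower too, by a median of -1.47, and the part of this in the carriers was not tested. The calls of Slc25a4, Slc25a30, Slc25a32 and Slc25a38, all higher, were lost with another scaling.

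Full-length NFIA gave the opposite picture. Against libraries labelled Cre at day 7, 20 members were higher and 10 lower in Cre + NFIA, together 78.9% of the carriers, against 27.0% and 35.9% of all genes and 63.0% in both directions. Past 3-fold were Slc25a34, Slc25a23, Slc25a10 and Slc25a35, all higher, where 2.13% of all genes were. Slc25a34 met the filter mainly in the groups where it was high, so its place here is not independent of the filter. Size factors by the median of ratios gave 22 higher and 7 lower members, and turned the split of all genes from 3418 higher and 4540 lower to 4264 and 3677. Carriers had a median log2 difference of 0.35, respiratory chain subunits one of 0.85 and all genes one of -0.06. The same libraries labelled Cre enter both comparisons, so the comparisons are not independent. Of the 30 calls, 7 were lost in at least 1 other setting or with 1 library left out. Among them, Slc25a32 and Slc25a38 were lost with either other scaling and without the filter. Set directly against ctrl, Cre + NFIA had 4 members higher (Slc25a23, Slc25a35, Slc25a39 and Slc25a40, the last of these lost with limma voom) and 1 lower (Slc25a24), 13.2% of the carriers against 18.0% of all genes (8.81% higher and 9.15% lower). Whether or not they passed, 47.4% of the carriers and 39.6% of all genes had no overlap between Cre + NFIA and ctrl.

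The mutant did not give this picture. Against libraries labelled Cre, 10 members were lower and 2 higher in Cre + NFIA Δpro#3 at day 7, together 31.6%, against 10.0% and 7.70% of all genes and 17.7% in both directions. None of the 12 was past 3-fold on the log2(FPKM + 1) scale, as 0.625% of all genes were, and with a pseudocount of 0.1 or limma voom 1 member, Slc25a34, was. This count rested on single libraries: it was 6 without replicate 2 of the libraries labelled Cre, 7 without their replicate 1 or replicate 1 of the mutant, and 16 (13 lower and 3 higher) without replicate 3 of those labelled Cre. The calls of members such as Slc25a11, Slc25a22, Slc25a30, Slc25a34 and Slc25a44 were lost without the filter. All 7 adipocyte markers were lower with the mutant, by a median of -2.17. Against Cre + NFIA, 19 members were lower and 9 higher with the mutant, together 73.7%, against 28.9% and 40.4% of all genes and 69.2% in both directions. Of the members 8 were past 3-fold against 6.92%. Among these Slc25a34, Slc25a10, Slc25a23, Slc25a1, Slc25a25 and Slc25a35 were lower and Slc25a24 was higher. No library of the mutant held Slc25a34 at 1 FPKM, so its place among them is not independent of the filter. Size factors by the median of ratios moved the median of all genes in this comparison by -0.10 and gave 8 higher and 22 lower members, and 4170 higher and 4429 lower genes in place of 5101 and 3649.

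**Figure D3:**
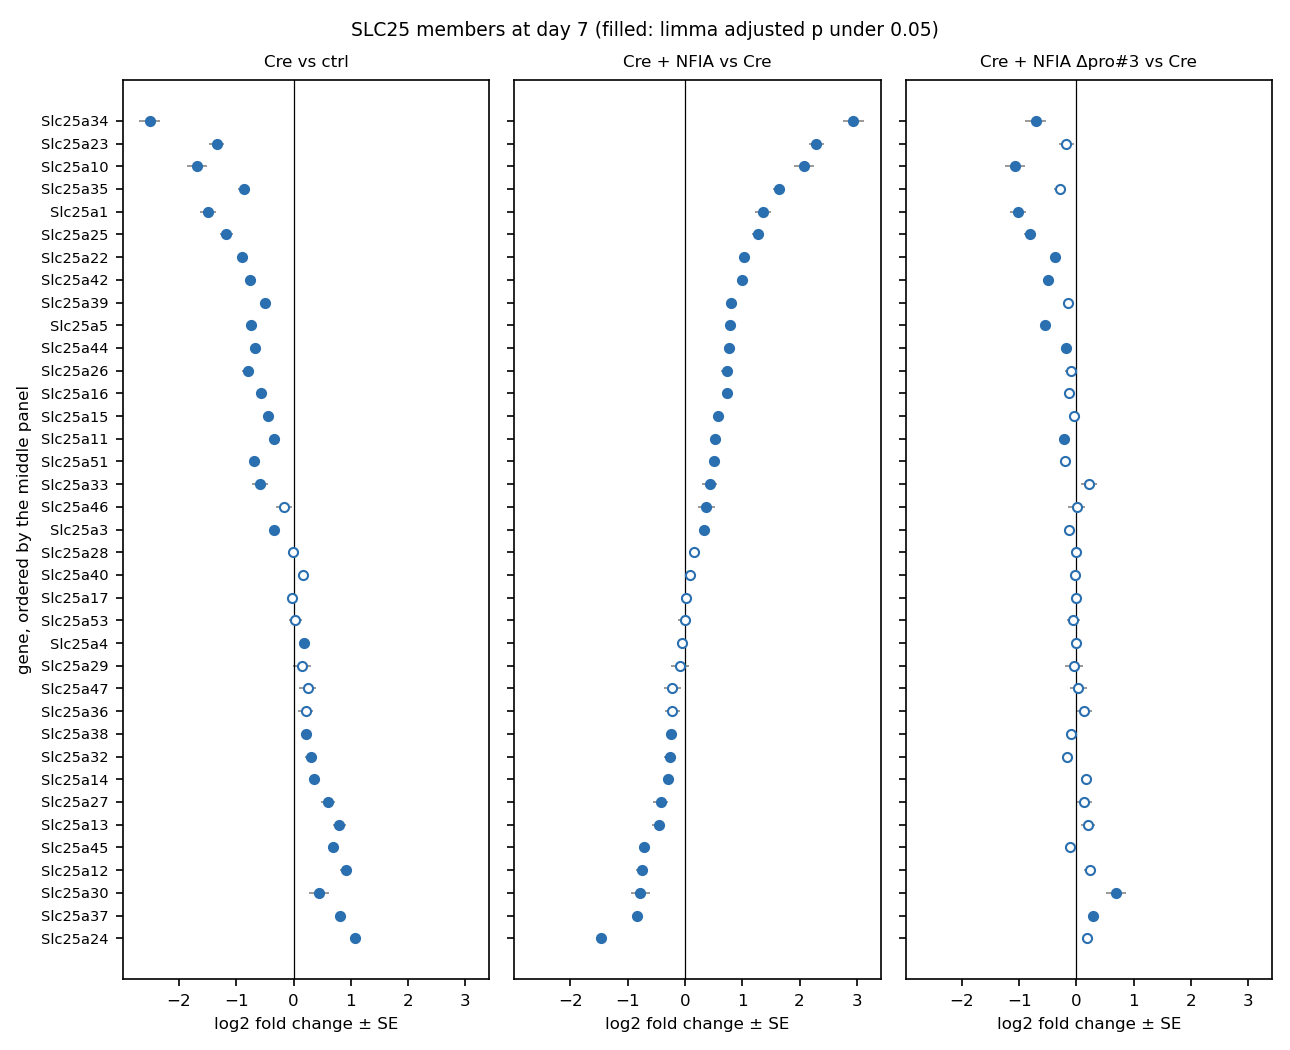
Log2 fold changes at day 7 (horizontal axes, ± SE, limma on log2(FPKM + 1)) of the carriers described (rows, ordered by the middle panel) with 3 panels: libraries labelled Cre minus ctrl, Cre + NFIA minus Cre, and the mutant minus Cre. Filled points passed an adjusted p of 0.05. Slc25a34 lies at -2.51, 2.94 and -0.71 in the 3 panels and Slc25a24 at 1.08, -1.47 and 0.19, and all 3 panels use the same libraries labelled Cre.

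Before differentiation the carriers differed little between the kinds of cells. No member passed between libraries labelled Cre and ctrl at day 0, and 3.33% of all genes did. The count was 0 in limma and in limma voom, and 4 members, among them Slc25a39, Slc25a4 and Slc25a51, had an unadjusted p under 0.05 in limma. Cre + NFIA had 8 members higher and 0 lower than libraries labelled Cre, against 27.6% of all genes (14.7% higher and 12.9% lower), and Cre + NFIA Δpro#3 had 5 higher and 0 lower, against 18.3% (9.26% higher and 9.02% lower). Slc25a5, Slc25a3, Slc25a24 and Slc25a39 were among the higher members in both. These shares of the carriers, 21.1% and 13.2%, were below those of all genes in both directions together and above those of higher genes alone. The first count was 5 without replicate 2 of Cre + NFIA and the second 3 without replicate 2 of the mutant. Whether the difference between kinds of cells itself differed between days was also tested. Between libraries labelled Cre and ctrl it did in 24 members, 18 of them more negative at day 7 (background 49.2%, and 19.5% more negative), between Cre + NFIA and Cre in 23 (48.9%), and between the mutant and Cre in 9 (18.2%). The median of ratios moved the median of all genes by -0.11 in the first of these tests and by 0.11 in the second.

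**Figure D4:**
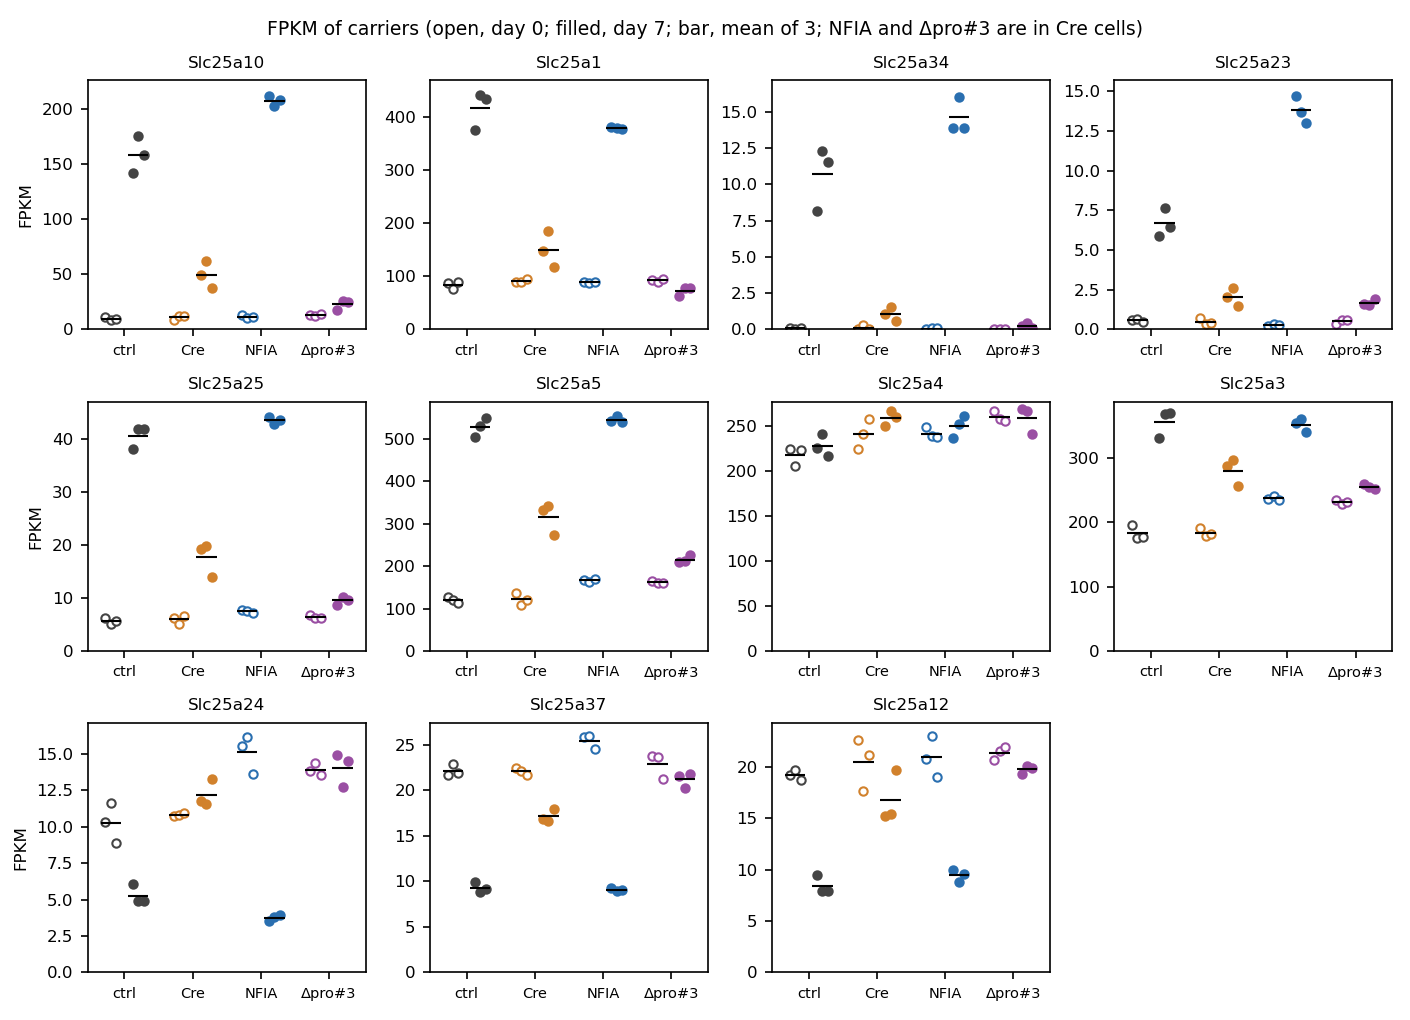
FPKM (vertical axes, from 0) of the carriers named above each panel in the 24 libraries, with open points for day 0, filled points for day 7 and a bar for the mean of 3. In Slc25a10, Slc25a1, Slc25a34, Slc25a23 and Slc25a25 the filled points of ctrl and Cre + NFIA lie above all others, in Slc25a24, Slc25a37 and Slc25a12 they lie below all others, and Slc25a4 stays between 205 and 268 FPKM throughout.

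The ADP/ATP and phosphate carriers were the 3 most abundant members in every day 0 library. Slc25a5, which exchanges ADP for ATP across the inner membrane, was at 109 to 169 FPKM over the day 0 libraries. After differentiation it stood at 505, 529.9 and 550.3 FPKM (ctrl), 332, 342 and 274 (labelled Cre), 543, 555 and 539.5 (Cre + NFIA) and 209.5, 211 and 226 (Δpro#3). Ctrl and Cre + NFIA were high and overlapped each other, and libraries labelled Cre lay between them and the mutant without overlap with either. Slc25a5 was below ctrl in libraries labelled Cre (log2 difference -0.75, SE 0.077, adjusted p = 8.16e-06 by limma), higher in Cre + NFIA than in Cre (log2 difference 0.79, SE 0.077, adjusted p = 2.97e-06 by limma) and lower with the mutant than in Cre (log2 difference -0.54, SE 0.077, adjusted p = 0.000905 by limma). Slc25a4, the other ADP/ATP carrier and the main one of heart and muscle, was at 205 to 266 FPKM at day 0. The day 7 libraries held it at 225, 241 and 216 FPKM (ctrl), 250.01, 267 and 259.9 (labelled Cre), 236, 252 and 261 (Cre + NFIA) and 268, 266 and 241 (Δpro#3). Its largest difference between groups at day 7 was 0.19 on the log2 scale, between libraries labelled Cre and ctrl (SE 0.062, limma adjusted p = 0.0207), which was 0.05 and did not pass with size factors by the median of ratios. Slc25a3, the phosphate carrier that supplies ATP synthase, was at 332, 368 and 371 FPKM (ctrl), 288, 297 and 256 (labelled Cre), 355, 362 and 340.5 (Cre + NFIA) and 261, 255 and 252 (Δpro#3) at day 7 and at 176 to 241 FPKM at day 0. It rose over differentiation in ctrl (log2 difference 0.96, SE 0.055, adjusted p = 1.97e-12 by limma) and by 0.14 with the mutant (limma adjusted p = 0.0467), a call lost without the filter, with the median of ratios and with the replicate block. Slc25a31, the ADP/ATP carrier of testis, had at most 2 reads in any library.

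In order of level, the 2 ADP/ATP carriers exchanged places over differentiation in all but the mutant cells. Their ratio within a library, Slc25a4 to Slc25a5, does not depend on how libraries are scaled. Its position against 1 rests on the level of Slc25a5, which may be understated. At day 0 it was 1.78, 1.72 and 1.98 in ctrl, 1.63, 2.21 and 2.13 in libraries labelled Cre, 1.48, 1.47 and 1.40 in Cre + NFIA and 1.62, 1.596 and 1.59 in Cre + NFIA Δpro#3, all above 1. After differentiation the ratio was 0.445, 0.454 and 0.392 in ctrl, 0.754, 0.780 and 0.949 in libraries labelled Cre, 0.435, 0.455 and 0.483 in Cre + NFIA and 1.28, 1.26 and 1.07 in the mutant. Slc25a5 therefore exceeded Slc25a4 in all libraries at day 7 except those of the mutant, where Slc25a4 remained the higher. On the log2(FPKM + 1) scale the ratio differed by 0.94 between libraries labelled Cre and ctrl, by -0.85 between Cre + NFIA and Cre, by 0.54 between the mutant and Cre and by -2.08 between days in ctrl. In each of these 4 comparisons the groups did not overlap, and the two-sided exact permutation p was 0.1, the smallest that 3 against 3 libraries allow.

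**Figure D5:**
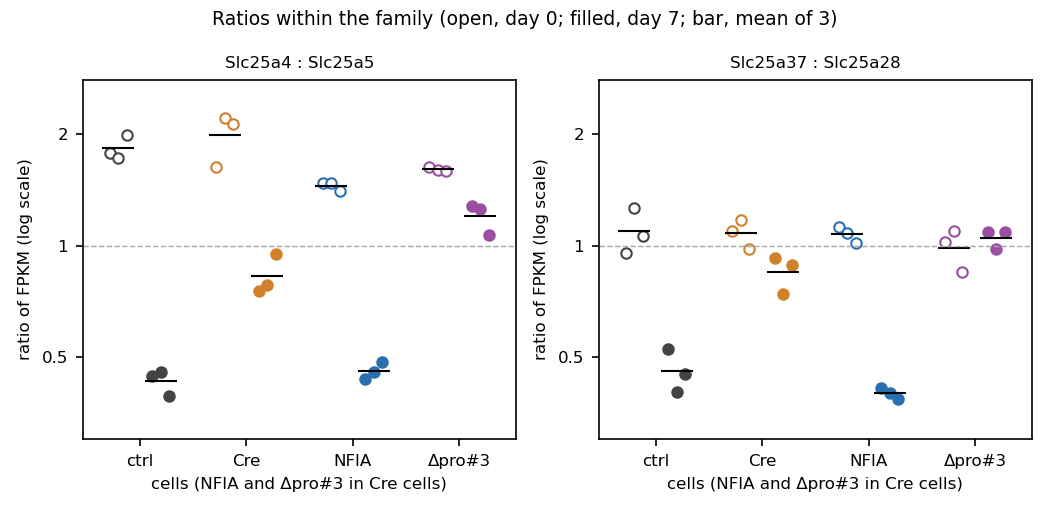
Ratios of FPKM within each library (vertical axes, log scale) of Slc25a4 to Slc25a5 and of Slc25a37 to Slc25a28, with open points for day 0, filled points for day 7, a bar for the mean of 3 and a dashed line at 1. At day 7 Slc25a4 to Slc25a5 falls to 0.392 to 0.454 in ctrl and stays at 1.07 to 1.28 with the mutant.

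The carriers of citrate and of dicarboxylates, both abundant at day 7, differed several-fold between the kinds of cells. Slc25a10, the dicarboxylate carrier, which exchanges malate or succinate for phosphate, was at 8.47 to 14.0 FPKM at day 0. The day 7 values were 142, 176 and 158 FPKM (ctrl), 49.1, 61.8 and 37.6 (labelled Cre), 212, 203 and 209 (Cre + NFIA) and 17.5, 26.1 and 25.05 (Δpro#3). The 4 groups did not overlap, although Cre + NFIA against ctrl did not pass in limma. Every library labelled Cre was far below every ctrl library. In ctrl it rose over differentiation (log2 difference 3.89, SE 0.16, adjusted p = 9.34e-15 by limma), and it also rose in libraries labelled Cre (2.04), in Cre + NFIA (4.07) and with the mutant (0.72). The difference at day 7 was -1.69 for Cre against ctrl (SE 0.17, limma adjusted p = 6.58e-06), 2.08 for Cre + NFIA against Cre (SE 0.17, limma adjusted p = 7.27e-07) and -1.07 for the mutant against Cre (SE 0.17, limma adjusted p = 0.00148).

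Slc25a1, the citrate carrier that supplies acetyl units for lipid synthesis, was nearly even at day 0, from 76.2 to 95.6 FPKM. After differentiation it stood at 375, 441 and 433 FPKM (ctrl), 148, 185 and 117 (labelled Cre), 381, 379 and 376 (Cre + NFIA) and 63.0, 77.3 and 76.9 (Δpro#3). With the mutant all 3 libraries were below every library labelled Cre, and also below all 3 of the same cells at day 0 (log2 difference -0.36, SE 0.11, adjusted p = 0.0137 by limma). In the other 3 kinds of cells Slc25a1 rose over differentiation, by 2.29 in ctrl, 0.68 in libraries labelled Cre and 2.08 in Cre + NFIA (limma adjusted p at most 2.92e-05). At day 7 it was below ctrl in libraries labelled Cre (log2 difference -1.49, SE 0.14, adjusted p = 3.72e-06 by limma), higher in Cre + NFIA than in Cre (log2 difference 1.36, SE 0.14, adjusted p = 4.16e-06 by limma) and lower with the mutant than in Cre (log2 difference -1.02, SE 0.14, adjusted p = 0.000777 by limma). Slc25a11, the 2-oxoglutarate carrier of the malate/aspartate shuttle, moved within narrower limits. It was at 43.6 to 51.5 FPKM at day 0 and at 61.4, 71.2 and 67.4 FPKM (ctrl), 51.9, 55.7 and 48.8 (labelled Cre), 76.5, 76.3 and 74.2 (Cre + NFIA) and 43.3, 45.4 and 45.4 (Δpro#3) at day 7. Slc25a11 was below ctrl in libraries labelled Cre (-0.35, limma adjusted p = 0.000428) and higher in Cre + NFIA than in Cre (0.53, limma adjusted p = 1.21e-05). Slc25a21, the oxodicarboxylate carrier, had no read.

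The partner carriers of the malate/aspartate shuttle went the other way. Slc25a12 and Slc25a13 exchange aspartate for glutamate and bind calcium. Slc25a12 was at 17.7 to 23.0 FPKM at day 0 and at 9.47, 7.88 and 7.95 FPKM (ctrl), 15.3, 15.4 and 19.7 (labelled Cre), 10.0, 8.83 and 9.61 (Cre + NFIA) and 19.3, 20.0 and 19.9 (Δpro#3) at day 7. The day 7 libraries of ctrl and Cre + NFIA were below all others, those labelled Cre overlapped the day 0 range, and those of the mutant lay within it. Slc25a12 fell over differentiation in ctrl (log2 difference -1.10, SE 0.094, adjusted p = 1.23e-09 by limma) and in Cre + NFIA (-1.06, limma adjusted p = 2.16e-09), and was above ctrl in libraries labelled Cre at day 7 (log2 difference 0.91, SE 0.10, adjusted p = 9.35e-06 by limma). Slc25a13 was at 3.70 to 5.84 FPKM at day 0 and at 0.913, 1.19 and 1.16 FPKM (ctrl), 2.35, 2.48 and 3.07 (labelled Cre), 1.79, 1.72 and 1.40 (Cre + NFIA) and 3.43, 2.65 and 3.46 (Δpro#3) at day 7. It was lower at day 7 than at day 0 in all 4 kinds of cells, by 1.26 in ctrl, 0.48 in libraries labelled Cre, 1.31 in Cre + NFIA and 0.48 with the mutant on the log2 scale (limma adjusted p at most 0.000522). The ratio of Slc25a13 to Slc25a12 was 0.0964, 0.151 and 0.146 in ctrl and 0.154, 0.161 and 0.156 in libraries labelled Cre at day 7, a difference whose sign depended on the pseudocount. Slc25a22, a glutamate carrier, was at 41.7, 50.8 and 48.8 FPKM (ctrl), 24.1, 28.0 and 22.7 (labelled Cre), 54.2, 51.3 and 49.4 (Cre + NFIA) and 17.2, 19.7 and 19.9 (Δpro#3) at day 7 and 29.8 to 43.7 at day 0. It rose in ctrl (0.28) and Cre + NFIA (0.64) and fell in libraries labelled Cre (-0.62) and with the mutant (-0.78; limma adjusted p at most 0.0107), so the kinds of cells moved in opposite directions, although in ctrl the day 0 and day 7 libraries overlapped and the call was lost with quantile normalization. Slc25a18, the second glutamate carrier, had at most 2 reads in any library.

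The 3 ATP-Mg/phosphate carriers, which are regulated by calcium and set the adenine nucleotide pool of the matrix, split as well. Slc25a24 was at 10.3, 11.6 and 8.85 FPKM (ctrl), 10.8, 10.8 and 10.95 (labelled Cre), 15.6, 16.2 and 13.6 (Cre + NFIA) and 13.8, 14.4 and 13.5 (Δpro#3) at day 0. The day 7 libraries held it at 6.04, 4.87 and 4.88 FPKM (ctrl), 11.8, 11.5 and 13.3 (labelled Cre), 3.54, 3.77 and 3.96 (Cre + NFIA) and 14.9, 12.7 and 14.5 (Δpro#3). Cre + NFIA thus lay above ctrl and libraries labelled Cre at day 0 and below every other kind of cells at day 7, without overlap. At day 0 it was higher in Cre + NFIA than in Cre (log2 difference 0.44, SE 0.088, adjusted p = 0.00361 by limma) and at day 7 lower (log2 difference -1.47, SE 0.09, adjusted p = 8.77e-08 by limma), and the difference between these differences was -1.91 (SE 0.13, limma adjusted p = 3.48e-10). At day 7 Slc25a24 was above ctrl in libraries labelled Cre (log2 difference 1.08, SE 0.09, adjusted p = 1.95e-06 by limma) and did not pass between the mutant and Cre (0.19, SE 0.09, limma adjusted p = 0.174).

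Slc25a25, from the same subgroup, rose instead. It was at 5.03 to 7.66 FPKM at day 0 and at 38.1, 41.8 and 41.9 FPKM (ctrl), 19.2, 19.7 and 14.0 (labelled Cre), 44.2, 42.8 and 43.5 (Cre + NFIA) and 8.65, 10.2 and 9.67 (Δpro#3) at day 7. Its level was below ctrl in libraries labelled Cre (log2 difference -1.17, SE 0.11, adjusted p = 3.47e-06 by limma), higher in Cre + NFIA than in Cre (log2 difference 1.27, SE 0.11, adjusted p = 9.61e-07 by limma) and lower with the mutant than in Cre (log2 difference -0.81, SE 0.11, adjusted p = 0.000714 by limma). Slc25a23 was hardly present in precursors, at 0.223 to 0.732 FPKM. At day 7 it was at 5.91, 7.68 and 6.45 FPKM (ctrl), 2.06, 2.63 and 1.48 (labelled Cre), 14.7, 13.7 and 13.0 (Cre + NFIA) and 1.58, 1.52 and 1.92 (Δpro#3). Every Cre + NFIA library was above every ctrl library, the largest excess over ctrl among the carriers (log2 difference 0.95, SE 0.13, adjusted p = 0.000529 by limma). It was below ctrl in libraries labelled Cre (log2 difference -1.34, SE 0.13, adjusted p = 5.6e-06 by limma), higher in Cre + NFIA than in Cre (log2 difference 2.29, SE 0.13, adjusted p = 5.59e-08 by limma), and did not pass between the mutant and Cre (-0.18, SE 0.13, limma adjusted p = 0.402). Pooled over 3 libraries, its reads at day 7 and day 0 were 821 and 71 in ctrl, 219 and 45 in libraries labelled Cre, 1878 and 29 in Cre + NFIA and 206 and 65 with the mutant, given as a description because the filter fixed the direction between days. Slc25a41 had at most 1 read in any library.

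Of the other amino acid carriers, Slc25a44 and Slc25a15 rose over differentiation in ctrl. Slc25a44, which imports branched-chain amino acids into mitochondria and is known from brown fat, was at 45.8, 49.7 and 50.4 FPKM (ctrl), 30.6, 32.0 and 28.3 (labelled Cre), 52.7, 50.8 and 52.6 (Cre + NFIA) and 25.6, 26.5 and 27.4 (Δpro#3) at day 7 and at 25.5 to 29.1 FPKM at day 0. The libraries labelled Cre and the mutant stayed near the day 0 range, and ctrl and Cre + NFIA lay above it. Slc25a44 was below ctrl in libraries labelled Cre (log2 difference -0.67, SE 0.056, adjusted p = 2.04e-06 by limma) and higher in Cre + NFIA than in Cre (log2 difference 0.76, SE 0.056, adjusted p = 3.12e-07 by limma). Slc25a15, the ornithine carrier, rose over differentiation in every kind of cell, by 0.71 in ctrl, 0.48 in libraries labelled Cre, 0.76 in Cre + NFIA and 0.46 with the mutant (limma adjusted p at most 0.000833). It was at 2.42 to 4.15 FPKM at day 0 and 3.72 to 7.29 FPKM at day 7. Slc25a38, a glycine carrier needed for haem synthesis, ranged over 7.01 to 11.4 FPKM in all 24 libraries, and Slc25a29, for basic amino acids, over 0.954 to 2.25 FPKM. Slc25a29 passed in none of the comparisons. Slc25a38 was above ctrl in libraries labelled Cre at day 7 (0.22, limma adjusted p = 0.0436), a call lost with either other scaling. Slc25a2, a second ornithine carrier, had at most 14 reads in any library.

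Of the carriers of coenzyme A and related cofactors, Slc25a42 and Slc25a16 rose over differentiation in ctrl by 1.63 and 0.72 and Slc25a17 by 0.15 on the log2 scale. Slc25a42 takes coenzyme A into the matrix. It was at 4.28 to 7.58 FPKM at day 0 and at 17.6, 21.6 and 20.9 FPKM (ctrl), 12.2, 12.4 and 9.85 (labelled Cre), 24.6, 23.6 and 23.2 (Cre + NFIA) and 7.73, 7.48 and 8.30 (Δpro#3) at day 7. All day 7 groups were apart, with Cre + NFIA highest and the mutant lowest, but Cre + NFIA against ctrl did not pass in limma. Its level was below ctrl in libraries labelled Cre (log2 difference -0.75, SE 0.092, adjusted p = 2.67e-05 by limma), higher in Cre + NFIA than in Cre (log2 difference 1.00, SE 0.092, adjusted p = 1.86e-06 by limma) and lower with the mutant than in Cre (log2 difference -0.49, SE 0.092, adjusted p = 0.00367 by limma). Slc25a16, linked to coenzyme A supply, was at 18.9, 17.4 and 19.1 FPKM (ctrl), 11.7, 13.9 and 10.7 (labelled Cre), 21.3, 20.0 and 20.6 (Cre + NFIA) and 10.9, 10.1 and 11.8 (Δpro#3) at day 7 and 8.30 to 12.5 at day 0. It was below ctrl in libraries labelled Cre (-0.58, limma adjusted p = 0.000112) and higher in Cre + NFIA than in Cre (0.73, limma adjusted p = 1.25e-05). Slc25a17, a carrier of peroxisomes and not of mitochondria, was at 37.7 to 49.2 FPKM over all libraries and passed in no comparison between kinds of cells at day 7. Its call between days in ctrl (limma adjusted p = 0.0251) was lost with quantile normalization, with only the groups compared and without 1 library of ctrl (replicate 1 or 3 of either day), while its change was 0.19 in libraries labelled Cre, 0.23 in Cre + NFIA and 0.24 with the mutant (limma adjusted p at most 0.00948).

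Carriers of cofactors and nucleotides mostly rose over differentiation in ctrl, libraries labelled Cre and Cre + NFIA, while with the mutant most did not pass. Slc25a51, which imports NAD+, was at 44.0, 44.1 and 43.9 FPKM (ctrl), 28.3, 28.6 and 24.3 (labelled Cre), 37.7, 38.1 and 40.3 (Cre + NFIA) and 21.2, 22.9 and 26.0 (Δpro#3) at day 7 and 18.0 to 21.9 at day 0. Its 3 ctrl libraries were almost identical and lay above all 3 of Cre + NFIA, but that difference did not pass in limma. Its level was below ctrl in libraries labelled Cre (log2 difference -0.68, SE 0.076, adjusted p = 1.36e-05 by limma) and higher in Cre + NFIA than in Cre (0.50, limma adjusted p = 0.00011). Slc25a26, the S-adenosylmethionine carrier, was at 6.70, 7.60 and 8.31 FPKM (ctrl), 4.39, 4.21 and 3.21 (labelled Cre), 6.44, 7.69 and 7.48 (Cre + NFIA) and 3.57, 3.75 and 3.45 (Δpro#3) at day 7 and at 2.15 to 4.37 FPKM at day 0, with -0.79 for Cre against ctrl (limma adjusted p = 5.4e-05) and 0.74 for Cre + NFIA against Cre (limma adjusted p = 7.18e-05).

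The other 3 of this group were at low levels. Slc25a33, a pyrimidine nucleotide carrier, was at 6.85, 7.51 and 6.68 FPKM (ctrl), 3.60, 4.07 and 5.60 (labelled Cre), 5.87, 7.78 and 5.21 (Cre + NFIA) and 5.34, 5.11 and 5.29 (Δpro#3) at day 7, below ctrl in libraries labelled Cre (-0.58, limma adjusted p = 0.00359). Cre + NFIA overlapped both of these groups. Slc25a36, a second pyrimidine nucleotide carrier, was at 5.88 to 11.9 FPKM over all libraries and did not pass between libraries labelled Cre and ctrl (0.21, limma adjusted p = 0.18). Slc25a32, linked to folate and flavin import, was at 2.37 to 5.90 FPKM and above ctrl in libraries labelled Cre at day 7 (0.31, limma adjusted p = 0.0216), a call lost with either other scaling.

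The 2 glutathione carriers differed in level and in response. Slc25a39 was at 82.8 to 120.0 FPKM at day 0 and at 159.7, 188 and 168 FPKM (ctrl), 118, 131 and 113 (labelled Cre), 211, 208 and 213 (Cre + NFIA) and 105, 111 and 110.0 (Δpro#3) at day 7. The Cre + NFIA libraries were above all others, ctrl included (log2 difference 0.30, SE 0.068, adjusted p = 0.0113 by limma). It was below ctrl in libraries labelled Cre (log2 difference -0.50, SE 0.068, adjusted p = 5.73e-05 by limma), and at day 0 it was higher in Cre + NFIA than in Cre (0.25, limma adjusted p = 0.0042). Slc25a40 was at 4.63 to 7.83 FPKM and did not pass between libraries labelled Cre and ctrl (0.16, limma adjusted p = 0.0941).

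The mitoferrins, which import iron for haem and iron-sulfur clusters, also parted. Slc25a37 (mitoferrin 1) was at 21.2 to 26.0 FPKM at day 0. After differentiation it stood at 9.90, 8.88 and 9.19 FPKM (ctrl), 16.9, 16.6 and 17.9 (labelled Cre), 9.28, 8.96 and 9.05 (Cre + NFIA) and 21.6, 20.3 and 21.8 (Δpro#3). Ctrl and Cre + NFIA were low and overlapped each other, libraries labelled Cre lay apart from them, and the mutant lay above those. Slc25a37 fell over differentiation in ctrl (log2 difference -1.17, SE 0.052, adjusted p = 3.86e-14 by limma) and Cre + NFIA (-1.39, limma adjusted p = 2.64e-15). At day 7 Slc25a37 was above ctrl in libraries labelled Cre (log2 difference 0.81, SE 0.056, adjusted p = 6.96e-07 by limma), lower in Cre + NFIA than in Cre (log2 difference -0.84, SE 0.056, adjusted p = 1.47e-07 by limma) and higher with the mutant than in Cre (log2 difference 0.29, SE 0.056, adjusted p = 0.00414 by limma). Slc25a28 (mitoferrin 2) was at 18.0 to 25.05 FPKM over all 24 libraries and passed in none of the comparisons. The ratio of Slc25a37 to Slc25a28 was 0.847 to 1.27 over the 12 day 0 libraries. After differentiation it was 0.524, 0.401 and 0.449 in ctrl, 0.924, 0.741 and 0.888 in libraries labelled Cre, 0.413, 0.400 and 0.385 in Cre + NFIA and 1.08, 0.980 and 1.09 with the mutant. The log2 ratio differed by 0.83 for Cre against ctrl, -1.01 for Cre + NFIA against Cre and 0.29 for the mutant against Cre, without overlap in each (two-sided exact permutation p = 0.1).

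The uncoupling-protein-like carriers, which resemble Ucp1 in sequence and whose transport roles are less settled, fell over differentiation in ctrl. Slc25a30 was at 8.73 to 11.3 FPKM at day 0 and at 6.59, 4.41 and 3.99 FPKM (ctrl), 6.01, 6.28 and 9.13 (labelled Cre), 3.62, 3.76 and 3.65 (Cre + NFIA) and 10.7, 11.2 and 14.2 (Δpro#3) at day 7. One ctrl library (replicate 1) and 1 library labelled Cre (replicate 3) were the highest of their groups. With the mutant every library was above every library labelled Cre. It was lower in Cre + NFIA than in Cre (log2 difference -0.78, SE 0.17, adjusted p = 0.0017 by limma) and higher with the mutant than in Cre (log2 difference 0.69, SE 0.17, adjusted p = 0.0157 by limma). Between libraries labelled Cre and ctrl the groups overlapped (log2 difference 0.45, SE 0.17, adjusted p = 0.0404 by limma), and this call was lost with either other scaling. Slc25a27 was at 1.247 to 2.06 FPKM at day 0 and at 0.434, 0.294 and 0.328 FPKM (ctrl), 1.12, 0.720 and 1.38 (labelled Cre), 0.491, 0.607 and 0.499 (Cre + NFIA) and 1.15, 1.19 and 1.45 (Δpro#3) at day 7, and was above ctrl in libraries labelled Cre (log2 difference 0.61, SE 0.13, adjusted p = 0.00131 by limma). Slc25a14 was at 2.74 to 6.16 FPKM, with 0.36 for Cre against ctrl (limma adjusted p = 0.00424). Slc25a46, of the outer membrane and tied to mitochondrial fission and fusion, was at 3.64 to 11.3 FPKM and rose over differentiation in all 4 kinds of cells, by 0.63, 0.70, 0.62 and 0.41 in the order ctrl, Cre, Cre + NFIA and the mutant (limma adjusted p at most 0.0329). With the mutant this call was lost without the filter, with quantile normalization and with only the groups compared.

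Among the carriers whose substrate is unassigned or least studied, Slc25a34 and Slc25a35, close relatives of each other, changed most. Slc25a34 had at most 0.338 FPKM in any day 0 library. The day 7 libraries held it at 8.198, 12.3 and 11.6 FPKM (ctrl), 1.09, 1.55 and 0.574 (labelled Cre), 13.9, 16.1 and 13.9 (Cre + NFIA) and 0.224, 0.432 and 0.0882 (Δpro#3). Ctrl and Cre + NFIA were high and did not overlap, libraries labelled Cre were far below them, and the mutant was lower again. The difference between Cre + NFIA and ctrl did not pass in limma. The day 7 level was below ctrl in libraries labelled Cre (log2 difference -2.51, SE 0.18, adjusted p = 9.45e-07 by limma), higher in Cre + NFIA than in Cre (log2 difference 2.94, SE 0.18, adjusted p = 9.07e-08 by limma) and lower with the mutant than in Cre (log2 difference -0.71, SE 0.18, adjusted p = 0.0188 by limma). The last call was lost with a pseudocount of 5 and without replicate 1 or 2 of the libraries labelled Cre or replicate 1 or 3 of the mutant. Slc25a34 passed the filter mainly through ctrl and Cre + NFIA libraries. These day 7 differences and their p-values are therefore not independent of the filter and are given as a description. Pooled reads at day 7 and day 0 were 1055 and 7 in ctrl, 90 and 8 in libraries labelled Cre, 1584 and 5 in Cre + NFIA and 24 and 4 with the mutant. Of the 8 reads of the day 0 libraries labelled Cre, 7 were in 1 library (replicate 2). Since the filter fixed the direction between days, these reads are given as a description.

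Slc25a35 was at 1.80 to 3.20 FPKM at day 0 and at 5.75, 5.01 and 5.12 FPKM (ctrl), 2.56, 2.87 and 1.98 (labelled Cre), 9.94, 9.70 and 9.70 (Cre + NFIA) and 1.74, 1.58 and 2.20 (Δpro#3) at day 7. All 3 Cre + NFIA libraries were well above ctrl (log2 difference 0.78, SE 0.11, adjusted p = 0.000508 by limma), and libraries labelled Cre and the mutant overlapped each other. Slc25a35 was below ctrl in libraries labelled Cre (log2 difference -0.87, SE 0.11, adjusted p = 2.99e-05 by limma) and higher in Cre + NFIA than in Cre (log2 difference 1.64, SE 0.11, adjusted p = 1.3e-07 by limma). In ctrl the change over differentiation was 0.69 and in Cre + NFIA 1.84, both with limma adjusted p at most 8.66e-06. Slc25a45 went the other way, at 3.68, 3.69 and 3.60 FPKM (ctrl), 7.04, 6.09 and 6.47 (labelled Cre), 3.13, 3.92 and 3.73 (Cre + NFIA) and 6.05, 6.54 and 5.28 (Δpro#3) at day 7 and 4.28 to 6.08 at day 0. It was above ctrl in libraries labelled Cre (log2 difference 0.69, SE 0.09, adjusted p = 4.4e-05 by limma) and lower in Cre + NFIA than in Cre (log2 difference -0.72, SE 0.09, adjusted p = 2.36e-05 by limma). Slc25a47, at 0.685 to 1.83 FPKM, and Slc25a53, at 0.595 to 1.38 FPKM, lay near the filter and passed in no comparison between kinds of cells at day 7. Slc25a43 had at most 12 reads in any library, Slc25a48 at most 4 and Slc25a54 at most 2.

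At day 0 the differences were small. Slc25a5 was at 126, 119 and 112 FPKM (ctrl), 137, 109 and 121 (labelled Cre), 168, 162 and 169 (Cre + NFIA) and 164, 161 and 160.1 (Δpro#3). Both kinds of cells with a transgene were above ctrl and Cre, without overlap (log2 difference 0.45, SE 0.073, adjusted p = 0.00111 by limma for Cre + NFIA and log2 difference 0.41, SE 0.073, adjusted p = 0.00365 by limma for the mutant against Cre). Slc25a3 showed the same order, at 195, 176 and 177 FPKM (ctrl), 192, 179 and 181 (labelled Cre), 237, 241 and 235 (Cre + NFIA) and 235, 229 and 232 (Δpro#3), with a log2 difference to Cre of 0.37 for Cre + NFIA (adjusted p = 0.000188 by limma) and 0.33 for the mutant (adjusted p = 0.000808). Slc25a46 was higher in Cre + NFIA than in Cre (log2 difference 0.45, SE 0.14, adjusted p = 0.0356 by limma), as were Slc25a13 (0.37), Slc25a25 (0.30) and Slc25a37 (0.19; limma adjusted p at most 0.0351). Slc25a33 was higher with the mutant than in Cre (log2 difference 0.53, SE 0.12, adjusted p = 0.0142 by limma), at 4.40, 5.72 and 4.17 against 2.94, 2.89 and 3.07 FPKM.

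Genes that work beside the carriers were taken as a companion list of 26: the uncoupling proteins, Mtch1 and Mtch2, the pyruvate carrier, outer membrane channels, import factors for carriers, and enzymes that use what the carriers move. At day 7, 22 of the 25 tested were below and 2 above ctrl in libraries labelled Cre, 22 were higher and 3 lower in Cre + NFIA than in Cre, and 11 were lower and 1 higher with the mutant than in Cre, beside medians of -0.81, 0.75 and -0.26. Of all genes 22.7% were lower and 36.1% higher in the first comparison, 27.0% higher and 35.9% lower in the second and 10.0% lower and 7.70% higher in the third. The pyruvate carrier subunit Mpc2 was at 376, 449 and 418 FPKM (ctrl), 189.5, 223 and 129 (labelled Cre), 393, 397 and 396 (Cre + NFIA) and 47.8, 73.2 and 75.3 (Δpro#3) at day 7. Citrate synthase, Cs, whose product Slc25a1 exports, was at 646, 698 and 709.6 FPKM (ctrl), 261, 282 and 197 (labelled Cre), 725, 720.3 and 722 (Cre + NFIA) and 131, 150.3 and 162 (Δpro#3). In both genes ctrl and Cre + NFIA lay above libraries labelled Cre, and the mutant lay below those, without overlap. Ucp2 was at 56.8, 75.6 and 76.1 FPKM (ctrl), 16.3, 19.9 and 8.45 (labelled Cre), 133, 125 and 131 (Cre + NFIA) and 3.70, 5.82 and 6.40 (Δpro#3) at day 7. Ucp1, the proton carrier of thermogenic fat, was below the filter, at no more than 1.55 FPKM in any library. The 2 companion genes above ctrl in libraries labelled Cre were Mtch1 and Got1, named here after their values were seen. Mtch1 was at 82.1, 87.6 and 78.7 FPKM (ctrl), 122, 126 and 124 (labelled Cre), 92.2, 89.9 and 88.8 (Cre + NFIA) and 122, 123 and 117 (Δpro#3), and Got1, an aspartate aminotransferase of the malate/aspartate shuttle, at 15.6, 16.5 and 15.3 FPKM (ctrl), 21.4, 20.4 and 21.3 (labelled Cre), 18.1, 16.9 and 17.9 (Cre + NFIA) and 31.2, 30.2 and 28.9 (Δpro#3).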

How the data were processed

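RNA-seq of 24 libraries was analysed, 3 in each of 8 groups, with groups taken from the labels. The authors aligned reads to mm9 with STAR 2.5.3a, as the submitters' processing notes name it, kept uniquely aligned reads and deposited FPKM per gene beside a gene length in bases. The annotation is not given in the sources used here. Values times length came out as whole reads for 100% of values within 0.02 of a read, which gave the depth and the reads used in limma voom. Genes with at least 1 FPKM in at least 3 libraries were kept, and log2(FPKM + 1) was fitted with limma 3.58.1 (R 4.3.3, trend on the mean), over the 12 libraries of a day for comparisons within a day and over 24 for those between days. The procedure was tested on simulated data. Within-family ratios were compared by two-sided exact permutation tests. No pair of libraries matched within sampling noise (chi-square per degree of freedom from 2.17 between replicates). Values in every library are given for members of each role and for those with the largest differences that passed without overlap between groups, up to 6 each way at day 7 and in ctrl over differentiation and up to 3 elsewhere. 1 member enters the counts and medians, while its values are not reported here. Members and lists were chosen with earlier results of these data known. Per-sample columns not used numbered 0.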

Additional observations from a re-analysis of the deposited data

Results flagged for a closer look

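The results given here stood out because the difference between 2 kinds of cells was not the same at day 0 and day 7, by limma's test of that difference with Benjamini-Hochberg adjustment over all genes. For libraries labelled Cre against ctrl, 24 members passed this test, 63.2% of those tested, where 49.2% of all genes did. The log2 difference at day 7 minus that at day 0 was -2.57 for Slc25a34, -1.85 for Slc25a10 and -1.60 for Slc25a1. It was 1.00 for Slc25a24, 0.83 for Slc25a45 and 0.83 for Slc25a12. For Cre + NFIA against Cre, 23 members passed, or 60.5%, where 48.9% of all genes did. Here the value was 3.02 for Slc25a34, 2.51 for Slc25a23 and 2.03 for Slc25a10, and -1.91 for Slc25a24, -1.04 for Slc25a37 and -0.84 for Slc25a30. For Cre + NFIA Δpro#3 against Cre, 9 members passed, or 23.7%, where 18.2% of all genes did. The value was -1.32 for Slc25a10, -1.04 for Slc25a1 and -0.95 for Slc25a5, and 0.64 for Slc25a30 and 0.25 for Slc25a37. Slc25a34 and Slc25a23 were under 1 FPKM in every day 0 library, so at day 0 they had little room to differ. All 3 contrasts use the libraries labelled Cre, and the adipocyte markers differed between the same groups at day 7, whose part in these values was not tested.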

How the results depend on the processing

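Every comparison was rerun with a pseudocount of 0.1 or 5, without the filter, with a mean of at least 5 FPKM, with size factors by the median of ratios, with quantile normalization, with only the groups compared, with limma voom on recovered reads, with a replicate block and without each library. No fold change of a named member that had passed reversed. The counts of members passing that left 1.5 times the reported count were, for the mutant against Cre at day 7, 6 without the filter and 7 with only the groups compared, for Cre + NFIA against ctrl at day 7, 3 with the mean of at least 5 FPKM, and for day 7 against day 0 in libraries labelled Cre, 17 with that mean, where fewer members were tested. The count of members past 3-fold moved with the pseudocount (0.1 and 5): 3 and 1 for libraries labelled Cre against ctrl (reported 2), 5 and 2 for Cre + NFIA against Cre (4), 1 and 0 for the mutant against Cre (0) and 10 and 5 for the mutant against Cre + NFIA (8) at day 7. The log2 ratio of Slc25a13 to Slc25a12 reversed without a pseudocount and with reads per length: from -0.11 to 0.29 for libraries labelled Cre against ctrl and from -0.03 to 0.026 for the mutant against Cre (two-sided exact permutation p = 0.1 and 1). With 1 library left out, the count was 6 to 16 for the mutant against Cre at day 7, 5 to 9 for Cre + NFIA against Cre and 3 to 5 for the mutant against Cre at day 0, and 27 to 29 for libraries labelled Cre against ctrl and 26 to 29 for Cre + NFIA against Cre at day 7. An arm of 2 libraries was fitted with the spread pooled over all groups.

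Replicate numbers are not said to pair samples, and the correlations of same-numbered deviations ran from -0.27 to 0.20, with no comparison above 0.1 in all 3. With the replicate block the counts were 29 for libraries labelled Cre against ctrl, 30 for Cre + NFIA against Cre, 11 for the mutant against Cre, 29 for the mutant against Cre + NFIA and 6 for Cre + NFIA against ctrl at day 7, within 1.5 times of those reported.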
